A study of Chlamydomonas reinhardtii with 2 samples.

Results

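Short candidate introns, from 50 to about 120 nt long, were described in poly-A selected RNA of the unicellular green alga Chlamydomonas reinhardtii. They were found from the reads alone, and their exact upper limit is given with the processing steps. When a read crosses a splice junction, only the stretch that lies in one exon matches the genome, and the authors trimmed such reads base by base until the rest matched. Trimmed alignments of many lengths therefore stop, or begin, at the same base. A base where alignments of 32 nt or less ended with 6 or more different lengths was taken as a right edge of a covered stretch, and one where they began with 6 or more lengths as a left edge. A right edge and the next left edge, each the other's nearest, made a pair. A pair was kept where the mean depth (reads covering a base) in the gap was under 20% of the mean depth of the left 30 nt and also of the right 30 nt. In all, 253 short gaps were found among 1413 candidate introns of up to 2000 nt, or 17.9% (exact Clopper-Pearson 95% interval 15.94 to 20.01, counting error only). The other 1160 are called longer candidates. Edges, gap length and depth in the gap chose these members, so values of these measures are given as a description and without a test.

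An intron is a stretch of a gene that is copied into RNA and then cut out by the spliceosome, which joins the exons on both sides. The spliceosome needs a splice site at each end and a branch point near the 3′ splice site, which sets a lower limit on how short an intron can be. Nuclear genes of Chlamydomonas are rich in introns, and most of these introns are longer than those described here.

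The samples were 2 libraries of poly-A selected RNA from cells labelled strain 2137, grown at 23 °C under constant illumination (50 to 90 µmol of photons each second on a square metre). Their medium was Tris-acetate-phosphate (TAP) carrying a revised trace element supplement. Both libraries form 1 group, and no other medium or strain was analysed here. Replicate 1 had 5380216 and replicate 2 had 5787626 uniquely aligned reads of up to 35 nt. A strain tag of replicate 2 reads 2138 against its own title, so results are also given for each library alone. Separate cultures are not mentioned in the labels, so p-values that set one library against the other cover only a spread that may be technical. The tables carry positions along the joined scaffolds of assembly version 3.1, with no strand, gene or sequence. Candidates are named by these positions as deposited, left and right refer to the assembly, and their genes, exons and splice site sequences were not analysed here.

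The short candidate introns had a median length of 88 nt, with an interquartile range of 77 to 106 nt. After the depth rule, their number began abruptly near 60 nt. Before that rule there was no such step, with 9 pairs of 50 to 54 nt, 18 of 55 to 59 nt and 20 of 60 to 64 nt. Only 3 of the 253 were under 60 nt (52, 58 and 59 nt), whereas 13 had 60 to 64 nt and 15 had 65 to 69 nt. The fullest bin of 5 nt among them held the 30 members of 85 to 89 nt, against 13 members of 100 to 104 nt and 24 of 105 to 109 nt. Members of 75 to 99 nt made up 121 (47.8%), those of 100 nt or more 83 (32.8%) and those of 50 to 74 nt 49 (19.4%). Above the upper limit the counts went on without a break, with 20 and 29 candidates in the next bins of 5 nt, so that limit divides a continuous distribution.

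**Figure D1:**
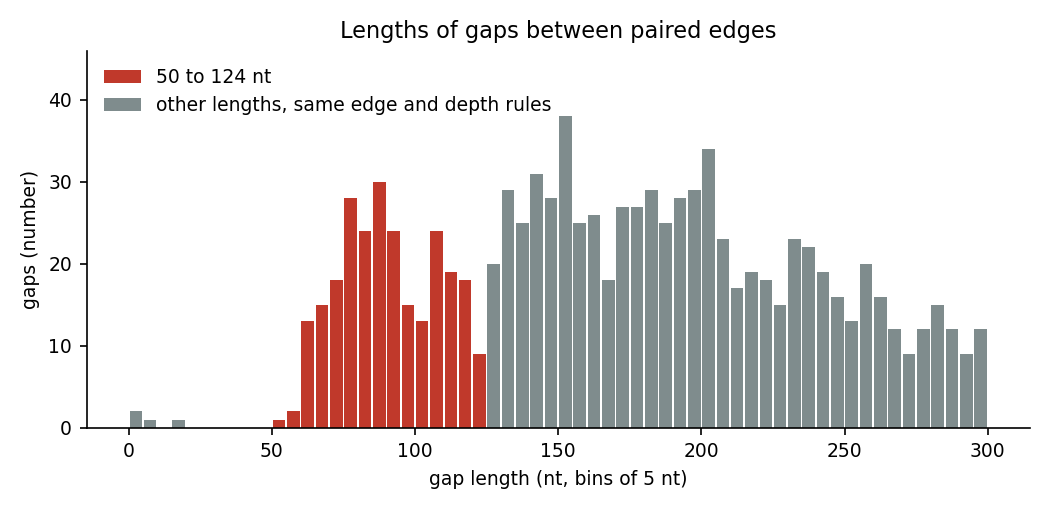
Number of gaps between paired edges (y) by gap length in bins of 5 nt (x), for both libraries summed. Members are red and gaps of other lengths that passed the same edge and depth rules are grey. No gap of 20 to 49 nt passed, and the counts begin near 60 nt.

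The lower limit lay in an empty range. With the limit of 50 nt lifted, 0 gaps of 20 to 49 nt passed the depth rule, although 184 edge pairs of that spacing existed before it. The nearest gap below was 18 nt long, at 35990850 to 35990867, and the next had 9 and 3 nt. The shortest member, 52 nt at 105595425 to 105595476, thus had no neighbour in length on either side within 5 nt. At the upper limit stood 1 member, at 90915778 to 90915901, with 3.77 and 4.31 reads per base in the gap in replicates 1 and 2. The 3 nearest outside were 1 nt longer. Ties in length were taken by flank depth, so these were the deepest of that length, with flank depths of 758 to 1473 reads per base.

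The limit on depth also fell in an empty range. The member nearest to it reached 11.7% of the shallower flank, and the nearest pairs of members' spacing outside had 47.1, 48.5 and 51.7%. In all 96 pairs of this spacing were over the limit, and 253 of 349 (72.5%) were under it. The share under it grew with the gap. It was 3 of 27 pairs of 50 to 59 nt (11.1%), 46 of 69 pairs of 60 to 74 nt (66.7%), 121 of 154 pairs of 75 to 99 nt (78.6%) and 83 of 99 longer pairs up to the limit (83.8%). Among pairs up to 25 nt beyond it the share was 133 of 141 (94.3%). The same search on control piles, in which the far end of each alignment was placed at double its length, gave 4 gaps of the members' lengths. Before the depth limit it gave 18 such pairs, against 349. Control piles were fewer, with 944 right and 926 left ones against 5349 right and 5517 left edges. The control positions also fall outside the reads in question, so the number is not a rate of false calls.

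Little RNA was read inside the members. Depth in the gap had a median of 0.366% of the mean flank depth (interquartile range 0.205 to 0.641%), and 222 of 253 members (87.7%) were under 1%. What was read lay at the ends. At the first base of the gap the median depth was 6.21% of the left flank, at the second 3.003%, at the third 0.0584% and at the fourth 0. At the right end it was 6.55% at the last base and 3.34% at the last but one. The outer 10 nt on each side held 91.1% of all bases covered inside the 253 gaps, although they made up 22.1% of their length. Without the 65-nt candidate at 106390240 to 106390304, described below, they held 88.2%. Full-length alignments were allowed 2 mismatches by the authors, so a spliced read with 1 or 2 bases beyond the junction could be counted as covering the gap. The part of such reads in these values was not tested.

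**Figure D2:**
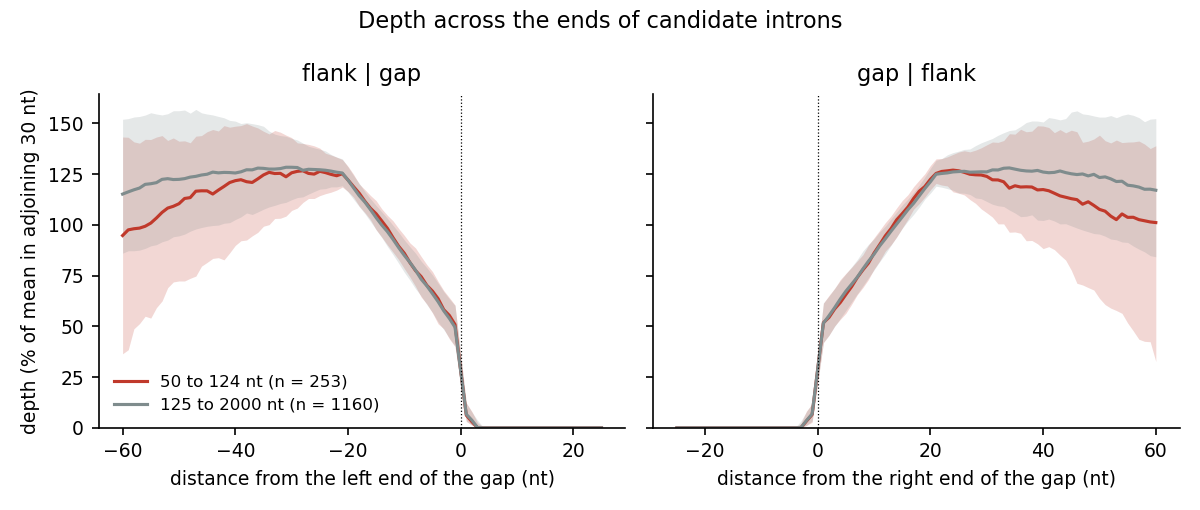
Median depth per base as a percentage of the mean of the adjoining 30 nt (y) against distance from the left or right end of the gap (x), with the interquartile range shaded. On the left, the median of the members (red) is 50.9% at the last flank base and 6.21% at the first gap base, and that of the longer candidates (grey) lies close to it.

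Away from the ends the members were nearly empty. With 10 nt left out on each side, 181 of 253 members (71.5%) had no covered base, against 459 of 1160 longer candidates (39.6%). A shorter gap has fewer bases on which a read can fall, so the share without a read is partly given by length. Per base, the pooled depth away from the ends was 0.0805% of the mean flank depth in the members and 0.271% in the longer candidates. It was 0.0689% and 0.256% where candidates with edge reads under 1% of flank depth were left out, which concerns that 1 member and 10 longer candidates. For the whole gap the order was the other way round, with a pooled depth of 0.706% in the members and 0.545% in the longer candidates. With the same candidates left out it was 0.456% and 0.391%. The median over candidates was 0.366% in the members and 0.238% in the longer candidates. The outer 10 nt on each side made up 22.1% of the members' length and 6.04% of that of the longer candidates. Among the 253 members, length and depth in the gap as a percentage of flank depth had a Spearman rho of -0.28. Length and flank depth in reads per base had one of 0.0189 (across members, which are not replicates and share both libraries).

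Of the 181 members, 5 had no covered base in the whole gap. They had flank depths of 11.3 to 54.8 reads per base and lengths of 79 to 114 nt. The deepest of them, at 35993273 to 35993380, had depths of 28.7 and 23.3 reads per base in its left flank and of 29.6 and 27.9 in its right flank in replicates 1 and 2. A count of 0 allows up to 3 reads of 35 nt, which in this gap would be a depth of 1.78% of the flanks. In the shallowest, at 98351648 to 98351761, the same 3 reads would be 8.16%.

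Reads that ran unspliced into a member were rare. To compare like with like, trimmed alignments of 21 to 27 nt that stopped at an edge were counted against full-length alignments that ran 8 to 14 nt into the gap. A total of 233 members (92.1%) had 0 such crossing reads, against 1056 of 1160 longer candidates (91.0%). Among the other 20 members 14 had a single crossing read. One member held 1364 of the 1394 crossing reads. It was the 65-nt candidate at 106390240 to 106390304, with 16 trimmed reads in the same count, and with it the pooled crossing share was 3.36%. Without it, 30 crossing reads stood against 40034 trimmed reads, or 0.0749% (exact Clopper-Pearson 95% interval 0.0505 to 0.107, counting error only).

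The libraries gave much the same crossing share. With that candidate it was 3.29% in replicate 1 and 3.43% in replicate 2. Without that candidate it was 0.0877% (0.0511 to 0.140) in replicate 1, from 17 crossing reads, and 0.0629% (0.0335 to 0.107) in replicate 2, from 13. These intervals overlap. In all 1160 longer candidates the crossing share was 7.61%, beside 3.36% in all members. In the 1150 longer candidates whose edge reads made up at least 1% of flank depth it was 0.859% (0.817 to 0.903). Trimmed reads at the edges enter the crossing share, so leaving out candidates with few of them lowers that share by itself. No test of members against longer candidates is given. The depth limit took part in choosing both sets, and a read running into a short gap fills more of it.

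The candidate at 106390240 to 106390304 stood apart from the rest and had the deepest flanks of all members. Its left flank had 1398 and 1541 reads per base, its gap 163 and 179 and its right flank 2686 and 2790 in replicates 1 and 2. Only 16 and 13 trimmed reads marked its edges in both libraries together. Other edges lay beside them, the nearest 14 nt to the left and 4 nt to the right, and the fullest within 30 nt held 437 trimmed reads, the most of any second edge in the members. On at least one side a fuller edge thus lay nearby, and the edge share and crossing reads of this candidate were counted at the lesser one. Edge reads made up 0.237% of flank depth at its weaker edge, whereas the median of the weaker edge over all members was 29.8% (interquartile range 22.6 to 37.8%). Most of its depth in the gap lay at the ends, with 0.498% of flank depth away from them. It is the only member under 1% by this measure, and 3 members were under 10%. Whether it is an intron cannot be told from these values, and results that rest on it are given with and without it.

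Some of the deepest members lay together. In the region at 19295588 to 19295956 lay 3 members of 63, 87 and 81 nt, separated by segments of 62 and 76 nt. The first had 1180 and 1376 reads per base on its left, 23.7 and 27.4 in the gap and 1547 and 1612 on its right in replicates 1 and 2. The second, at 19295713 to 19295799, had 11.2 and 11.1 in the gap between flanks of 1374 to 1838. The third, at 19295876 to 19295956, had 5.85 and 7.25 in the gap between flanks of 939 to 1671. Away from the ends the depth was 0.00895% of the flanks in the first, and no base was covered in the other gaps. These 3 also had the most trimmed reads at their edges, with 478 and 1370, 756 and 1493, and 1163 and 697 reads on the left and right.

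The 8 members of highest flank depth were these 3, the 65-nt candidate and 4 others. The 110-nt member at 108993975 to 108994084 had 1576 and 1729 reads per base on its left, 6.44 and 7.55 in the gap and 1616 and 1858 on its right in replicates 1 and 2, and 0 crossing reads against 933 trimmed. The 119-nt member at 91041232 to 91041350 had 1.99 and 2.07 in the gap between flanks of 756 to 1220, with 0 crossing reads against 931. The 72-nt member at 26924798 to 26924869 had 3.31 and 3 in the gap between flanks of 826 to 1070. The depth limit of the search already sets the gaps of all these members below their flanks. The 76-nt member at 101619137 to 101619212 had 1.49 and 1.16 in the gap, but its edges were uneven, with 98 trimmed reads on the left and 914 on the right.

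The shortest members had the same shape, at lower depth than the members of highest flank depth. The 58-nt member at 89701625 to 89701682 had 18.6 and 17.1 reads per base on its left, 0.0172 and 0.0345 in the gap and 22.0 and 23.1 on its right in replicates 1 and 2. The 59-nt member at 79579493 to 79579551 had 119 and 107 on its left, 0.932 and 0.729 in the gap and 72.1 and 74.7 on its right. Both had 0 crossing reads, as did the members of 60 and 61 nt at 425360 to 425419 and 63764070 to 63764130. The 52-nt member differed from these. It had 26.5 and 28.2 on its left, 1.29 and 1.29 in the gap and 26.4 and 25.4 on its right, with 6 crossing reads against 27 trimmed (18.2%).

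Few members kept reads along the gap. The highest depth relative to the flanks was 9.10%, in the 85-nt member at 104717010 to 104717094. It had 45.5 and 51.6 reads per base on its left, 6.13 and 4.93 in the gap and 82.5 and 63.3 on its right in replicates 1 and 2. Away from the ends its depth was still 8.97% of the flanks, the highest of all members, and the 3 members that followed it in the same direction, described below, had at most 0.353% in the whole gap. Besides the 65-nt and the 52-nt candidates (8.14 and 4.84%), the next were 2.91% in the 74-nt member at 79579611 to 79579684 and 2.90% in the 84-nt member at 21543970 to 21544053. In the last of these the gap had 0.167 reads per base in replicate 1 and 1.12 in replicate 2. Over 5% were 2 of 253 members (0.791%), against 63 of 1160 longer candidates (5.43%). Of these 63, 24 were among the 911 of up to 395 nt (2.63%) and 39 among the 249 of 401 nt or more (15.7%). The depth limit had already removed 96 of 349 pairs of members' spacing, against 241 of all 1654 pairs of 50 to 2000 nt. These shares thus describe only pairs that passed the limit, and their order without it was not tested.

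Short candidate introns adjoined other short ones more often than longer candidates did. Of the 253 members, 222 (87.7%) had another candidate intron of any length within 2000 nt, on one side (130 members) or on both (92). On 314 sides of members a candidate adjoined. On 128 of these (40.8%) it was also short, and on 186 it was longer. On 1498 sides of longer candidates a candidate adjoined, and on 186 (12.4%) it was short, while short ones made up 17.9% of all candidates. In replicate 1 alone the shares were 42.5% beside members and 13.4% beside longer candidates, and in replicate 2 alone 44.7% and 12.9%. Among candidates of at least the median flank depth they were 42.7% and 12.7%, and among the shallower ones 32.7% and 12.1%. Adjoining candidates can lie in 1 transcript and are not independent, so no test is given.

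**Figure D3:**
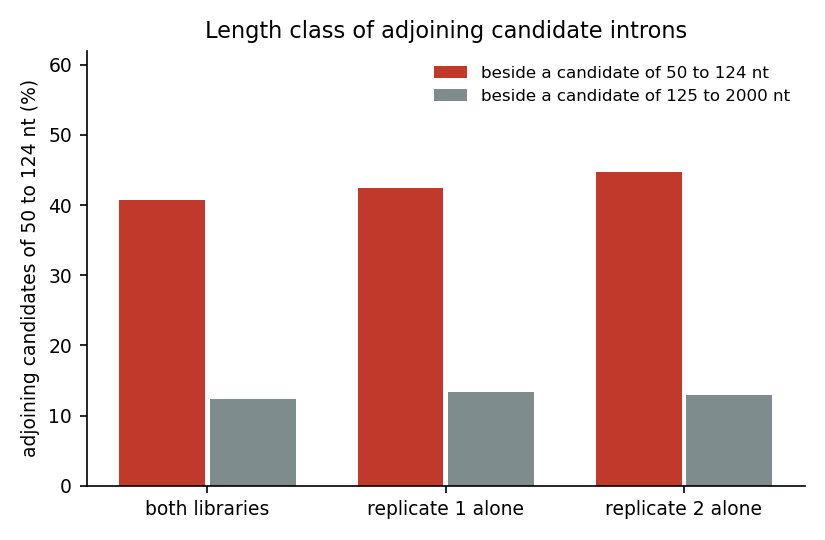
Share of adjoining candidate introns (within 2000 nt) that were short (y), beside a member (red) and beside a longer candidate (grey), for both libraries summed and for each alone (x). The red bars are 40.8, 42.5 and 44.7% and the grey bars 12.4, 13.4 and 12.9%.

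The covered segments between short members were also short. Between 2 members the median segment was 88.5 nt (interquartile range 59 to 144.5 nt, 64 segments, 27 to 348 nt). Between a member and a longer candidate it was 119 nt (75.25 to 218.5 nt, 186 segments), and between 2 longer candidates 139 nt (92 to 248.25 nt, 656 segments). The shortest, of 27 nt, separated the members at 77138523 to 77138631 and 77138659 to 77138759. It is shorter than a read, so no full-length alignment lies within it. Depth further from the gap was also lower beside members. At 60 nt to the left of the gap the median depth was 94.7% of the flank mean beside members and 115% beside longer candidates, and at 60 nt to the right 101% and 117%. A covered segment of under 60 nt ends before that point.

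Members followed each other in 45 runs of 2 or more, which held 109 of the 253. There were 30 runs of 2, 11 runs of 3 and 4 runs of 4, and 144 members stood alone. The runs of 4 with their covered segments were compact. At 77613312 to 77613836 gaps of 89, 79, 63 and 108 nt alternated with segments of 55, 72 and 59 nt, so that 339 of 525 nt lay in gaps. Their flanks had 289 to 820 reads per base in both libraries together and their gaps 0.698 to 1.58. A candidate of 434 nt came before the run, after a segment of 59 nt. No crossing read was found at any of the 4.

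**Figure D4:**
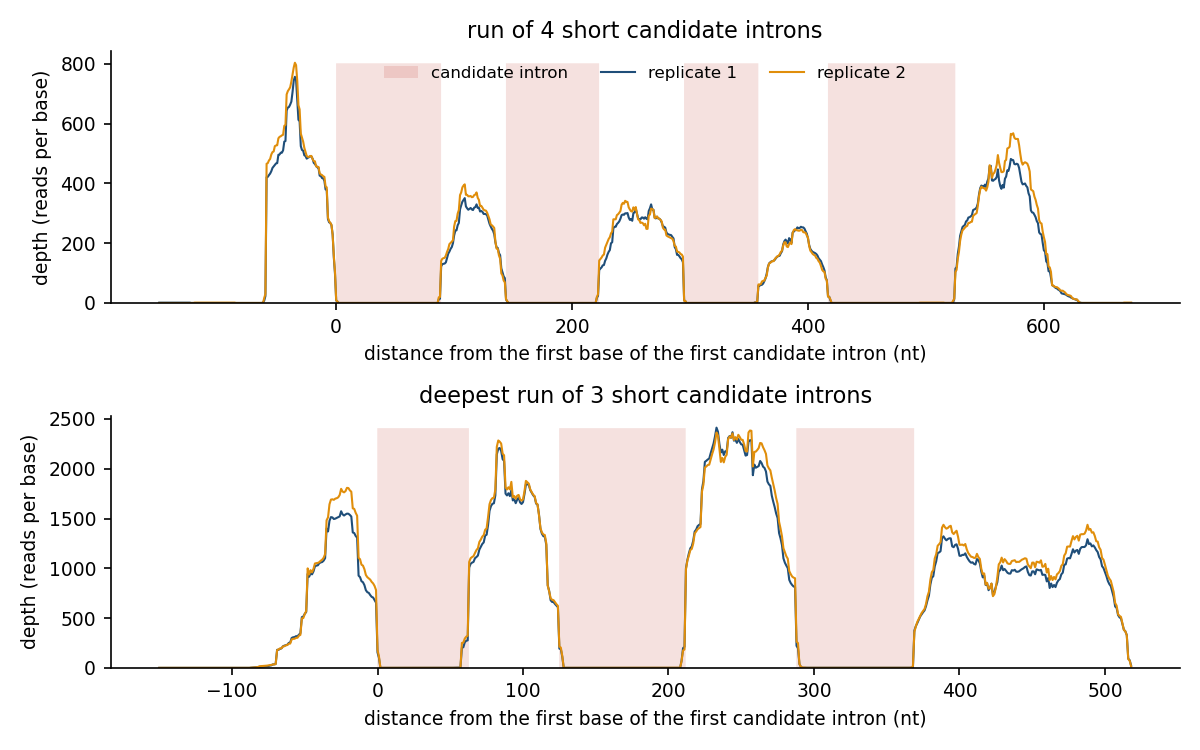
Depth per base (y, reads) in replicate 1 (blue) and replicate 2 (orange) against distance from the first base of the first member (x) for the run of 4 members of highest flank depth and for the deepest run of 3. Shading marks the members (89, 79, 63 and 108 nt above, 63, 87 and 81 nt below), and in both libraries depth falls to near 0 within the shading and rises again after it.

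The other runs of 4 had the same layout. At 79579262 to 79579806 gaps of 70, 59, 74 and 87 nt were separated by segments of 161, 59 and 35 nt, with flanks of 143 to 374 reads per base. At 31538900 to 31539560 gaps of 80, 119, 103 and 86 nt were separated by 90, 110 and 73 nt, with flanks of 58.8 to 289. At 104717010 to 104717618 gaps of 85, 77, 91 and 74 nt were separated by 73, 151 and 58 nt, with flanks of 97.2 to 206. The first gap of the last run is the member with reads along the gap, while the other 3 had 0.353, 0.201 and 0.106% of flank depth. Without the 4 runs of 4, the share of short candidates beside members was 36.4% and that beside longer candidates 12.2%.

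Reads at the members did not differ between the libraries beyond the threshold. Across all 1413 candidates the percentage called by a two-sided exact binomial test on the reads of gap and flanks (Benjamini-Hochberg adjusted p under 0.05) was 0%, and 0 of the 253 members were called. At an unadjusted p under 0.05 there were 18 members (7.11%) and 53 longer candidates (4.57%), together 71 of 1413 (5.02%). The share was higher in the members than in the longer candidates, and neither this difference nor its cause was tested. The libraries had been summed before any candidate was called, whatever this test gave, and are counted as 1 sample. The lowest p was that of an 88-nt member at 13151386 to 13151473, with 229 reads in replicate 1 and 347 in replicate 2 (exact binomial test, adjusted p = 0.0721, with 0.0426 to 0.0978 over the alternatives). With 8 lengths required at an edge, which left 834 candidates to test, it was the 1 member called. The split between gap and flank starts was also compared. By Fisher's exact test 0% of the candidates and 0 members passed, and 5 members had an unadjusted p under 0.05. Flank depth in replicate 2 over replicate 1, each divided by its library's total reads, had a median log2 ratio of 0.0029 over the members (-0.77 to 0.74).

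**Figure D5:**
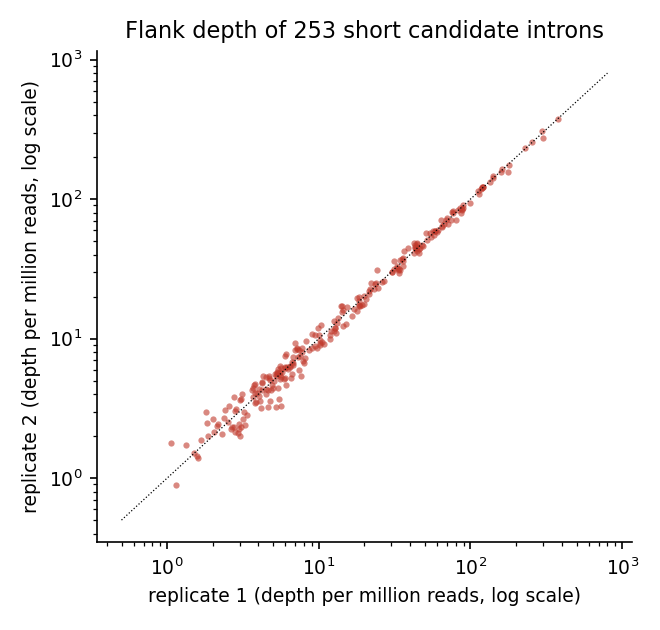
Mean flank depth scaled to the total of uniquely aligned reads in replicate 1 (x) and replicate 2 (y), both on log scales, for the 253 short candidate introns (points). The dotted line marks equal values, and the log2 ratios lie between -0.77 and 0.74, widest at low depth.

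Members called in one library alone were found again in reads that had no part in the call. In replicate 1 alone 148 short candidates were called. In replicate 2 all 148 were under the depth limit, 129 (87.2%) had both edges with 6 or more lengths and 148 had both with 3 or more. In replicate 2 alone 160 were called, and in replicate 1 all 160 were under the limit, 129 (80.6%) had both edges with 6 or more lengths and 159 with 3 or more. The median depth in the gap, measured in the library not used, was 0.363% and 0.350% of the flanks. For longer candidates the share with both edges at 6 or more lengths was 82.8% (538 of 650 called in replicate 1) and 77.9% (538 of 691 called in replicate 2). All short candidates of either library were members of the summed set. The libraries may share a culture, so this is a repeat of the reads and not of the cells.

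Most edges were sharp. Of trimmed reads that ended within 6 nt of a member's left side, a median of 95.3% ended at the same base (interquartile range 92.3 to 98.6%), and of those that began within 6 nt of its right side 95% began at the same base (90.3 to 97.8%). A second edge with 6 or more lengths lay within 30 nt into a flank of 52 members (20.6%), against 221 longer candidates (19.1%). Within 6 nt it was 35 members (13.8%), against 10.7% of the longer candidates. The fullest second edge was that of the 65-nt candidate at 106390240 to 106390304, with 437 reads against 16 and 13 at its own edges. The next was that of the 96-nt member at 70455212 to 70455307, with other edges from 12 nt to its left and 2 nt to its right, of which the fullest held 222 reads, against 995 and 186 reads at its own edges. Where the first bases of the gap equal those of the next exon, a trimmed alignment runs on into the gap, so true lengths may exceed those given by a few nt. Without sequence this was not measured.

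Lengths divisible by 3, which keep the reading frame when an intron stays in the RNA, were not in excess in the members. They were 79 of 253 (31.2%), beside 85 (33.6%) with a remainder of 1 and 89 (35.2%) with a remainder of 2. In the longer candidates 391 of 1160 (33.7%) were divisible by 3. Among members of 50 to 74 nt the share was 12 of 49 (24.5%), among those of 75 to 99 nt 35 of 121 (28.9%) and among the longest 32 of 83 (38.6%). An error of 1 nt at an edge moves a length to another class.

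Members were spread along the whole assembly. Per 10 Mb of joined scaffolds there were 11 to 42 of them, leaving out the last stretch with 5 candidates. Their share of all candidates lay between 12.1% (at 0 to 10 Mb, 7.09 to 18.9) and 27.6% (at 60 to 70 Mb, 20.7 to 35.5, exact Clopper-Pearson intervals). Flank depth of the members had a median of 111 reads per base (interquartile range 52.2 to 468), and that of the longer candidates 97.2 (46.7 to 440). A total of 20 members had 1000 or more and 24 had under 30.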

How the data were processed

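Per the labels, poly-A selected RNA of 2 samples was fragmented and sequenced as single reads of 35 nt. Per the authors' deposited readme, the aligner was SOAP, run on the unmasked assembly version 3.1 (1266 scaffolds). Its version is not given in the sources used here. Up to 2 mismatches were allowed first, and reads without a match were then trimmed base by base, to 21 nt at the least, until a perfect match was found. Values in the authors' files are raw counts of unique reads, one for each start position and alignment length.

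Groups and replicate numbers came from the titles. Counts of both libraries (11167842 reads) were summed, depth was computed from all alignments, and edges and gaps of 50 to 124 nt (members) and 125 to 2000 nt (longer candidates) were found as described (Python 3.11.15, numpy 2.4.6, scipy 1.17.1). Flank depth is the mean of the left and right 30 nt. The libraries were compared per candidate with a two-sided exact binomial test at the ratio of total reads (summed count at least 10) and Fisher's exact test, Benjamini-Hochberg adjusted over all candidates. edgeR 4.0.16 (TMM) and DESeq2 1.42.0 supplied other scalings. Calling and test were also run on simulated data, with a single intron in each transcript and no unspliced reads. The real data are less simple, so that run does not give the share of missed or false calls here. Intervals of 95% cover counting error only.

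The members and the rules that chose them, with most measures, were set with earlier results of these data known. Named are the members of highest flank depth (8), shortest length (5), most edge reads (5), highest and lowest depth in the gap (5 each), those next to the limits and the longest runs. Members with uneven edges or flanks, second edges or the lowest p were named after their values were seen. No genome or annotation of this assembly was used here, so no sequences or genes are given.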

Additional observations from a re-analysis of the deposited data

How the results depend on the processing

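Each result was recomputed with other edge, depth, flank, pairing and counting settings and for each library alone. Leaving out 1 candidate and the shares of adjoining candidates were added after seeing the data. In total 104 of 131 alternatives kept within 1.5 times a count or inside the interval of a share or median. For the shares of adjoining candidates that interval treats each side as independent, although a pair of short ones is counted from both sides. It is thus only a rough mark there. Requiring 8 lengths at an edge gave 150 short candidates, 137 with another nearby, 46 divisible by 3 and a median flank depth of 280. All 150 had both edges with 3 or more lengths in each library (232 of 253 as reported), which the rule partly gives. In that setting 1 member differed between libraries (exact binomial test, 834 candidates tested, adjusted p = 0.0426). Its adjusted p was 0.0600 to 0.0978 under the other settings that used all reads. Without the depth limit the share of short candidates was 21.1%, the depth in the gap 0.565%, the flank depth 311 and the short share beside longer candidates 15.5%. Pairing every right edge with the next left edge gave 15.5%, 0.445%, a flank depth of 172, segments of 87 nt, and short shares of 52.5% beside members and 7.93% beside longer candidates. Counting each position once gave 0.431% and a flank depth of 39.9, in distinct alignments rather than reads. The flank depth was 68.0 with 5 lengths and 176 with alignments up to 30 nt. Each library alone gave 148 to 160 short candidates, 136 to 147 with another nearby and 48 to 49 divisible by 3. Flank depths there were 146 to 168 in reads of that library only, while the reported depth sums both. The 146 was thus counted as kept against an interval on an unlike scale. The median length stayed between 87 and 90 nt in all 11 alternatives. No paired analysis was possible because no groups are compared. Flanks had under 30 reads per base in 24 members, and how many introns were missed at such depths was not tested.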

Other observations

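In 12 members (4.74%) 1 flank was more than 5 times as deep as the other, against 11 of 1160 longer candidates (0.948%), a count made after seeing the values and not tested. The member at 3946908 to 3946982 (75 nt) had 687 and 722 reads per base on its left and 9.27 and 8.97 on its right in replicates 1 and 2. The member at 68077699 to 68077789 (91 nt) had 682 and 731 on its left and 12.9 and 7.70 on its right. The member at 91720825 to 91720888 (64 nt) was uneven the other way, with 20.4 and 41.6 on its left and 797 and 900 on its right. The left flank was deeper in 6 of the 12 and the right in 6. In each of the 12 another candidate intron adjoined on 1 side only, and in 11 of them the deeper flank faced it. The exception was the member at 38206377 to 38206478. Among all 130 members with an adjoining candidate on 1 side only, the deeper flank faced it in 82 (63.1%). The ratio of deeper to shallower flank had a median of 1.31 over the members and 1.26 over the longer candidates.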
